A study of Mus musculus with 10 samples.

Results

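Phagocytic and plaque-associated genes of microglia were examined in cortices of 5XFAD mice with and without deletion of Idol from neurons. The list held 41 mouse genes, which were taken by symbol from what is known of engulfment and of the microglial state seen at amyloid plaques. No measured value entered the choice of genes other than a total count over 10, but the list was drawn up with earlier results of these data known. Each of the 41 symbols matched 1 of the 53700 Ensembl identifiers in the counts, and all 41 had a total over 10 in the 10 libraries, as 19268 genes did in all. By role they were 2 bridging ligands and 2 TAM receptors, 4 integrins, 7 proteins of the lysosome and phagosome, 9 surface and signalling proteins, 7 secreted proteins, 3 enzymes of lipid metabolism, 4 MHC class II proteins, 1 actin-binding protein and 2 ferritin chains.

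Cortical RNA of female mice at 4 months of age gave 10 libraries, 5 in the group named 5XFAD and 5 in the group named 5XFAD;Neu cKO. All 10 carried the 5XFAD transgenes, which are driven by Thy1 sequence in neurons and lead to amyloid plaques, so no library represents a brain without amyloid. In 5XFAD;Neu cKO mice a Camk2a-Cre transgene, active mainly in excitatory neurons of the forebrain, was crossed to floxed Idol (Mylip), the gene of a ubiquitin ligase that degrades lipoprotein receptors. The controls were littermates given as wild type for Idol, and whether they carried Cre was not stated in the sources used here. Camk2a-Cre is not active in microglia, in which most of the genes described below are mainly expressed. The RNA was read with QuantSeq libraries, which give reads from the 3′ end of each poly(A) transcript. The libraries came from 5 mice per genotype, and the labels do not tie single libraries to single animals.

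Most of the 41 genes were lower in libraries labelled 5XFAD;Neu cKO, but few of the differences passed the test. The log2 fold change was below 0 in 34 of 41 genes, where 50.1% of all genes tested were below 0, and its median was -0.48 against -0.00056 over all genes. At an adjusted p under 0.05 in edgeR's quasi-likelihood test, 3 genes passed and all of them fell: Mpeg1, the pore-forming protein of the phagosome, Laptm5, a lysosomal membrane protein of immune cells, and Plxdc2, a transmembrane receptor of the plexin-domain type. Over all genes tested, 0.161% were called in this direction and 0.218% in either. None of the 41 was called higher, where 0.0571% of all genes were. At an unadjusted p under 0.05 in edgeR, 13 of the 41 were lower and none was higher, and 4.01% of all genes were lower at this level. An exact permutation test over all relabellings of 5 against 5 libraries gave some of the 13 a p above 0.05. It was 0.230 for Cd9, 0.167 for Cd53, 0.119 for Lgals3bp and 0.0556 for each of Cst7, Itgam and Cd52. In 5 of the 41, every library labelled 5XFAD;Neu cKO lay below every library labelled 5XFAD, which held for 0.721% of all genes, and none of the 41 lay wholly above, where 0.576% of all genes did (1.3% in either direction). The plots of change by gene and of values by library show these genes by role.

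Microglia are the phagocytes of the brain. Engulfment begins when surface receptors bind a target directly or through a bridging ligand, and the cargo is then broken down in the phagosome and lysosome. Microglia in contact with amyloid plaques lower genes of their resting state and raise a shared set of genes for lysosomal proteins, lipid handling, surface receptors and secreted factors, which includes Cst7, Lpl, Itgax, Spp1 and Cd9. In bulk tissue, fewer microglia and less RNA per microglial cell cannot be told apart.

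Reads on genes ranged from 4320504 to 7466192 in the libraries labelled 5XFAD and from 5148499 to 7246659 in those labelled 5XFAD;Neu cKO. Mylip (chromosome 13, 45543215 to 45565501 in GRCm39) was counted 45 to 108 times in the former and 50 to 148 times in the latter, and the log2 fold change was 0.39 (standard error 0.25, adjusted p = 0.777 in edgeR), and the groups overlapped. A 3′ read need not come from the deleted part of the gene, so these counts do not check the labels, and the groups are given as the labels name them. Levels are given below in CPM, counts scaled to the size of the library. Markers of excitatory neurons, the main cells of the cortex, summed to 2174 to 2649 CPM in libraries labelled 5XFAD and to 2162 to 2503 CPM in the others.

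**Figure D1:**
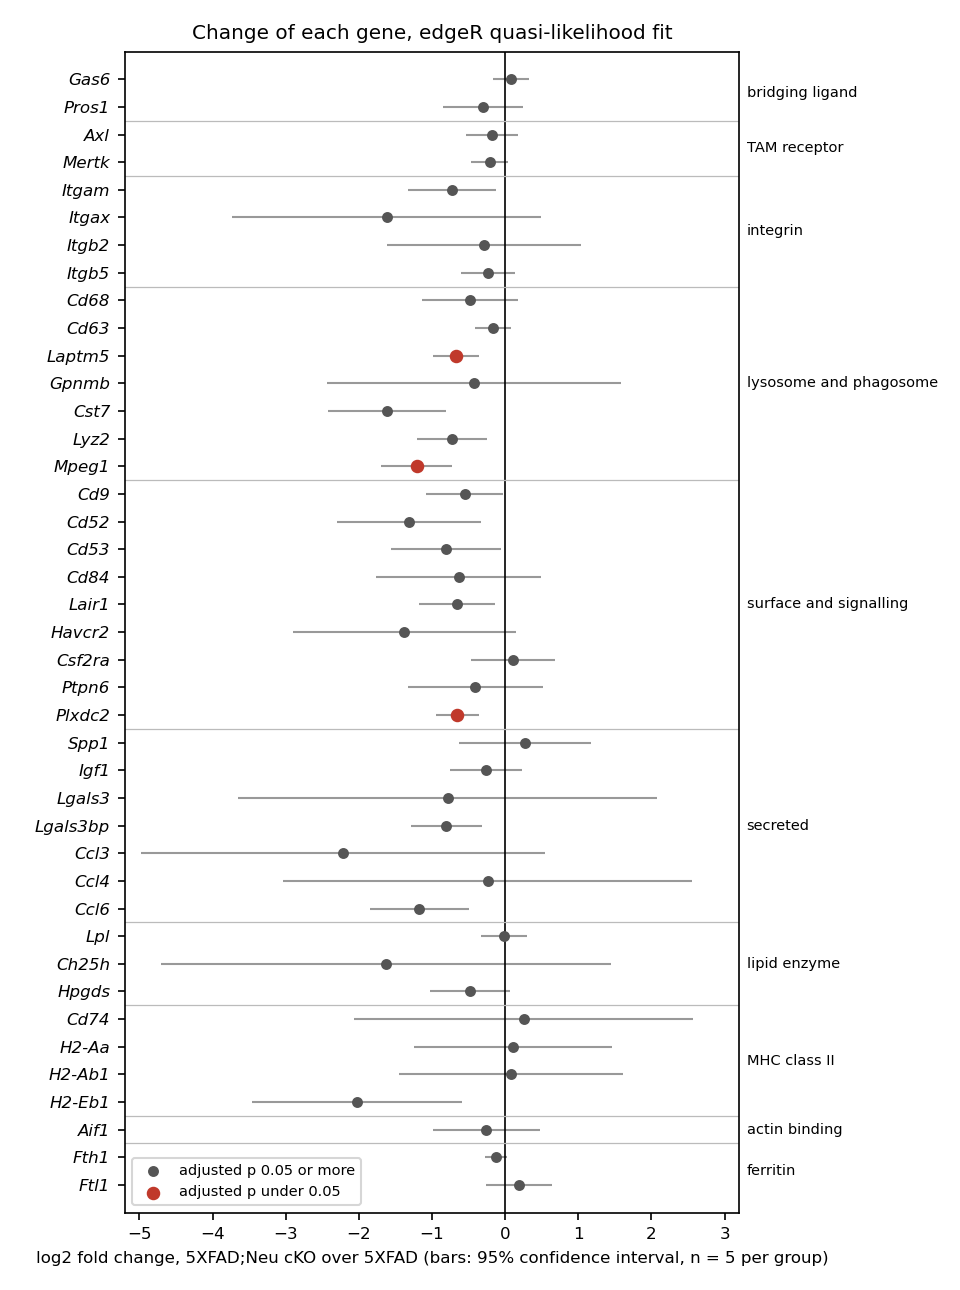
Log2 fold change of the 41 genes, 5XFAD;Neu cKO over 5XFAD (x axis), with 95% confidence intervals from the edgeR fit (bars, n = 5 libraries per group) and genes ordered by role. The 3 genes with an adjusted p under 0.05 are in red, all of them below 0, and 34 of the 41 points lie left of the line at 0.

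The ligands and receptors of the TAM family, which tether phosphatidylserine on dying cells and debris to the phagocyte, did not pass the test. Gas6, a bridging ligand (ENSMUSG00000031451), stood at 56.8, 54.0, 68.7, 46.2 and 60.8 CPM in replicates 1 to 5 labelled 5XFAD and at 54.8, 64.4, 63.4, 65.3 and 56.0 CPM in those labelled 5XFAD;Neu cKO. Its groups overlapped over most of their range, and the log2 fold change was 0.08 with a 95% confidence interval of -0.16 to 0.33 (adjusted p = 0.956 in edgeR). Pros1, protein S, the other bridging ligand, was at 15.1, 13.1, 12.2, 12.3 and 10.3 CPM in libraries labelled 5XFAD and at 18.1, 10.1, 8.01, 11.3 and 4.17 CPM in the others. The 5XFAD;Neu cKO values held both the highest and the lowest of the 10, and the log2 fold change was -0.30 (interval -0.85 to 0.25, adjusted p = 0.882).

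Mertk, the TAM receptor by which resting phagocytes clear dying cells, was at 60.5, 71.8, 55.02, 50.3 and 71.8 CPM in libraries labelled 5XFAD. It was at 60.0, 51.7, 50.9, 52.2 and 51.6 CPM in those labelled 5XFAD;Neu cKO. The lowest value of all belonged to a library labelled 5XFAD, and the log2 fold change of -0.21 had an interval of -0.46 to 0.03 (adjusted p = 0.728 in edgeR). Axl, the TAM receptor that inflammation induces, was at 36.0, 23.5, 36.7, 25.5 and 24.2 CPM and at 26.2, 33.1, 31.8, 21.5 and 17.2 CPM in the same order. Both groups of Axl held high and low libraries, and its log2 fold change was -0.18 (interval -0.53 to 0.18, adjusted p = 0.903). The intervals of Gas6 and Mertk leave out a log2 change of 1 in either direction, as do those of Axl and Pros1. These intervals hold for RNA of the whole cortex, and a change within microglia alone was not measured.

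Integrins that bind complement-coated targets and vitronectin were likewise not called. Itgb5, whose product pairs with the alpha v chain, was at 41.9, 32.8, 16.6, 38.4 and 21.8 CPM in libraries labelled 5XFAD and at 21.9, 27.0, 27.4, 24.9 and 26.6 CPM in those labelled 5XFAD;Neu cKO. The former spread widely and enclosed the latter (log2 fold change -0.24, standard error 0.18, adjusted p = 0.856 in edgeR). Itgam, the alpha chain of complement receptor 3, had a mean of 10.5 ± 3.26 CPM (SD, n = 5) in the libraries labelled 5XFAD and 6.41 ± 1.51 CPM (SD, n = 5) in the others. Its log2 fold change of -0.72 had an interval of -1.33 to -0.12, but the adjusted p was 0.488 and the groups overlapped. Itgb2, the beta chain shared by these receptors, and Itgax, the alpha chain known as CD11c, were counted few times, and their intervals ran from -1.61 to 1.04 and from -3.73 to 0.50.

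Among the proteins of the lysosome and phagosome, all 7 genes had a log2 fold change below 0 and 2 passed the test. Mpeg1, perforin-2, which forms pores in the membrane of engulfed bacteria and in phagosomes (ENSMUSG00000046805; chromosome 19, 12438114 to 12442649), was at 20.7, 19.2, 17.7, 32.1 and 14.8 CPM in libraries labelled 5XFAD. It was at 11.96, 9.01, 5.91, 12.1 and 6.46 CPM in those labelled 5XFAD;Neu cKO. The groups did not overlap, and the largest of the latter was below the smallest of the former (means 20.9 ± 6.61 and 9.09 ± 2.93 CPM, SD, n = 5 each). Mpeg1 fell by 1.21 on the log2 scale (standard error 0.24, adjusted p = 0.00494 in edgeR), to 0.432 times its level. Leaving out each library in turn kept the call 9 times in 10, and it was lost without 5XFAD replicate 4, which held its highest value (adjusted p = 0.0862).

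Laptm5, which sends immune receptors to the lysosome (ENSMUSG00000028581; chromosome 4, 130638161 to 130663452), was at 44.4, 40.4, 33.0, 35.6 and 39.3 CPM in libraries labelled 5XFAD and at 21.7, 28.3, 21.5, 28.4 and 21.0 CPM in those labelled 5XFAD;Neu cKO. The lowest of the former was above the highest of the latter (means 38.5 ± 4.39 and 24.2 ± 3.83 CPM, SD, n = 5 each). Laptm5 fell by 0.67 on the log2 scale (standard error 0.16, adjusted p = 0.0357 in edgeR, and 0.00648 in DESeq2). The 2 adjusted values here and for Plxdc2 below are not over the same genes, since DESeq2 adjusted over 5820 and edgeR over 19268. The edgeR call of Laptm5 changed with most single libraries. It was past the threshold without 5XFAD replicate 3, without 5XFAD;Neu cKO replicate 2 or without 5XFAD;Neu cKO replicate 4. The adjusted p was 0.137, 0.104, 0.0526 and 0.0645 without 5XFAD replicates 1, 2, 4 and 5, and 0.0699, 0.144 and 0.166 without 5XFAD;Neu cKO replicates 1, 3 and 5.

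Lyz2, the lysozyme of myeloid cells, also had groups that did not overlap, but its adjusted p was 0.330. It was at 13.4, 15.96, 13.04, 15.5 and 25.1 CPM in libraries labelled 5XFAD and at 8.79, 10.1, 7.35, 10.8 and 12.9 CPM in the others, so that the lowest of the former was next to the highest of the latter. Its log2 fold change was -0.72 (standard error 0.24). For 5 against 5 libraries without overlap, the exact two-sided permutation p is fixed at 0.00794, the smallest the design allows, and adds nothing to the lack of overlap. Reads of Lyz2 may be shared with its near-copy Lyz1. Cd63, a tetraspanin of late endosomes, was at 51.4, 57.7, 52.8, 63.4 and 52.7 CPM and at 50.5, 42.7, 53.2, 53.5 and 47.1 CPM in the same order. Its groups overlapped, and its log2 fold change of -0.17 had an interval of -0.42 to 0.08 (adjusted p = 0.838 in edgeR).

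Cst7, cystatin F, an inhibitor of lysosomal cathepsins that plaque-associated microglia raise, came close to the threshold. Its CPM was 9.30, 14.1, 1.77, 13.4 and 9.43 in the libraries labelled 5XFAD and 2.80, 4.60, 2.36, 4.54 and 1.29 in the others. Replicate 3 labelled 5XFAD lay among the 5XFAD;Neu cKO values and the other four lay above them. The log2 fold change was -1.62 (standard error 0.40, adjusted p = 0.0700 in edgeR), and it passed in 1 of the 10 fits without 1 library. The lowest adjusted p was 0.0037, with 5XFAD replicate 3 left out, and the highest was 0.386, with 5XFAD replicate 2 left out. It was 0.00857 with no filter on low counts, 0.0332 in a robust fit and 0.144 with filterByExpr. Cd68, the lysosomal glycoprotein often stained to mark phagocytic microglia, was at 9.21 ± 2.83 and 6.58 ± 2.93 CPM (SD, n = 5 each) with an adjusted p of 0.812, and Gpnmb, a lysosomal glycoprotein of lipid-laden phagocytes, was at 1.07 ± 0.325 and 0.797 ± 0.721 CPM with an adjusted p of 0.974.

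**Figure D2:**
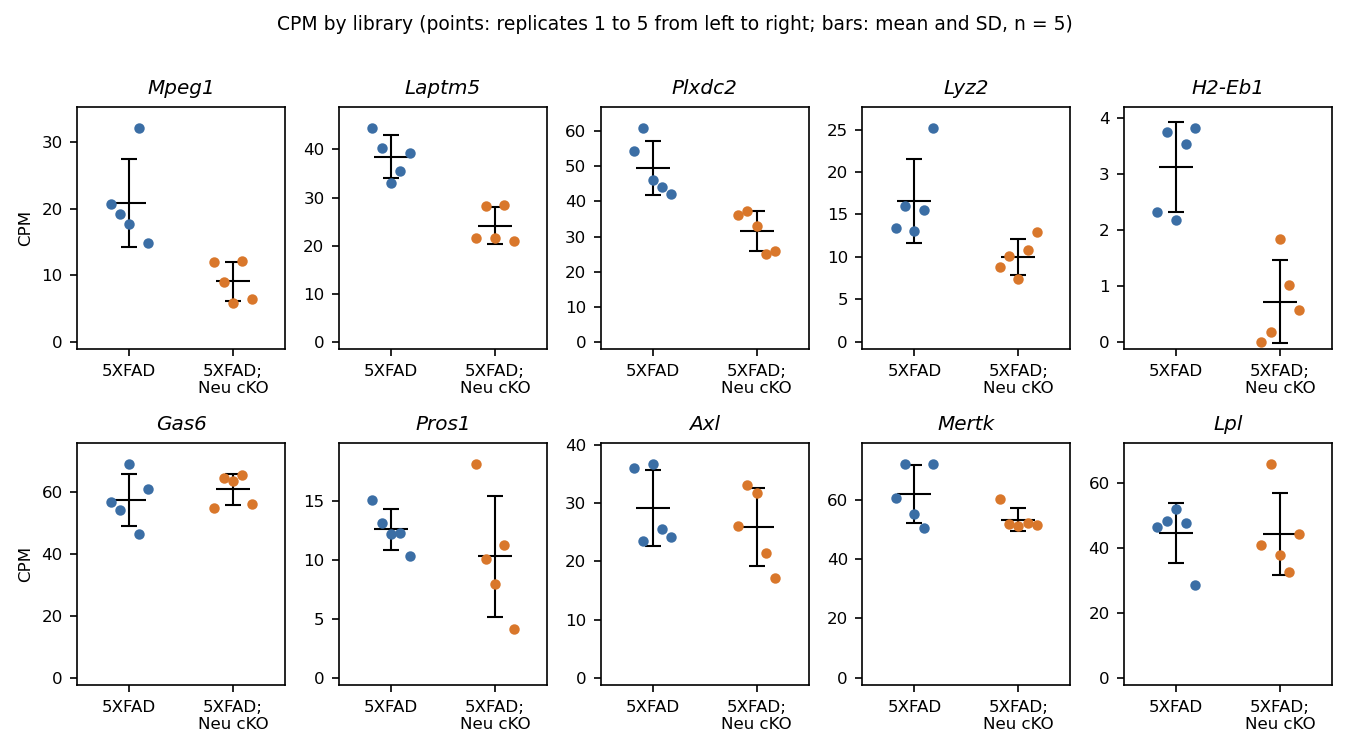
CPM (y axis, from 0) of 10 genes in each library, with points for replicates 1 to 5 from left to right in each group and bars for the mean and SD (n = 5). The groups are apart in Mpeg1, Laptm5, Plxdc2, Lyz2 and H2-Eb1 and overlap in Gas6, Pros1, Axl, Mertk and Lpl.

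The surface and signalling proteins held the other gene past the threshold. Plxdc2, a receptor with a plexin domain (ENSMUSG00000026748; chromosome 2, 16359634 to 16763259), was at 54.3, 60.8, 46.1, 44.2 and 42.2 CPM in libraries labelled 5XFAD and at 36.1, 37.3, 33.1, 25.1 and 25.9 CPM in those labelled 5XFAD;Neu cKO. The groups did not overlap (means 49.5 ± 7.80 and 31.5 ± 5.72 CPM, SD, n = 5 each). Plxdc2 fell by 0.65 on the log2 scale (standard error 0.15, adjusted p = 0.0245 in edgeR, and 0.0088 in DESeq2). With 1 library left out at a time it passed 5 times in 10. The adjusted p was 0.0881 and 0.170 without 5XFAD replicates 1 and 2, and 0.0539, 0.125 and 0.148 without 5XFAD;Neu cKO replicates 3, 4 and 5. Genes annotated on the opposite strand overlap Plxdc2 and Laptm5, and none overlaps Mpeg1. Such partners are also annotated for Gas6, Pros1, Mertk, Itgb5, Cd63, Lyz2, Lpl, Aif1 and Fth1. The same holds for Cd68, Gpnmb, Cd9, Cd52, Csf2ra, Ptpn6, Igf1, Ccl3, Ccl6, Ch25h, Hpgds, H2-Aa, H2-Ab1, H2-Eb1 and Ftl1. Plxdc2, Mertk, Itgam, Cd9, Lair1, Spp1, Cd74, H2-Ab1, H2-Eb1 and Ftl1 overlap at least 1 further gene on their own strand. The strand setting of the counting was not given in the sources used here, so reads of such partners could not be told apart.

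Of the other 8 genes of this role, none passed, and 7 had a log2 fold change below 0. Lair1, an inhibitory receptor for collagen and C1q, was at 14.1 ± 3.23 CPM in libraries labelled 5XFAD and 8.93 ± 2.66 CPM in the others (SD, n = 5 each; log2 fold change -0.65, interval -1.17 to -0.13, adjusted p = 0.459 in edgeR). The glycoprotein Cd52 had a log2 fold change of -1.31 (interval -2.30 to -0.33, adjusted p = 0.436). For the tetraspanins Cd53 and Cd9 it was -0.81 (adjusted p = 0.565) and -0.55 (adjusted p = 0.597). In each of these 4 genes the interval left out 0 while the groups overlapped. Single libraries weighed on 3 of them. Without 5XFAD replicate 1 the log2 fold change was -0.23 for Cd9 and -0.49 for Cd53, and without 5XFAD replicate 2 it was -0.86 for Cd52. Havcr2, the checkpoint receptor TIM-3, Cd84, a receptor of the SLAM family, and Ptpn6, the phosphatase SHP-1, had intervals that took in 0. So did Csf2ra, the alpha chain of the GM-CSF receptor, whose log2 fold change was 0.10 (standard error 0.29).

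The region just upstream of each start site was searched for short motifs, since Mpeg1, Laptm5 and Plxdc2 moved in 1 direction. The window was the 250 bases before the start of the canonical transcript in GRCm39, all 41 genes had one, and 14663 protein-coding genes among those tested served for comparison. The motifs, on both strands, were GAGGAAGT for PU.1, the ETS factor that specifies myeloid cells, AGGAAG as the core of ETS sites, TGANTCA for AP-1 and the E-box CACGTG bound by lysosomal regulators of the TFEB family. AGGAAG lies within the PU.1 motif and was added after the longer motif had been searched. The PU.1 motif was in 1.97% of all windows and in 0 of the 41. AGGAAG was in 28.3% of all windows and in 15 of the 41 (36.6%), TGANTCA in 4.55% and in 4 (9.76%), and CACGTG in 7.47% and in 2 (4.88%). A match describes these letters only, and no binding was measured. The stretches below show the windows of the 3 genes past the threshold on the plus strand, with AGGAAG in capitals, and leave out bases that belong to exons of other transcripts except for the 30 bases around the match in Laptm5. They are chr19:12437893-12438113 for Mpeg1, which holds none of the motifs, chr4:130640382-130640411 for Laptm5, whose match starts 38 bases before the start site, and chr2:16360983-16361088 for Plxdc2, whose match starts 81 bases before it.
Mpeg1: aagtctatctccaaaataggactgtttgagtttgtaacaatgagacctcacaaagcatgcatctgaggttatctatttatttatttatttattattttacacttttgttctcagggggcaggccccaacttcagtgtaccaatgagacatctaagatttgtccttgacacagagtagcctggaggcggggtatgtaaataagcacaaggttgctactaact
Laptm5: tgttcagcatccAGGAAGcagagtgcatat
Plxdc2: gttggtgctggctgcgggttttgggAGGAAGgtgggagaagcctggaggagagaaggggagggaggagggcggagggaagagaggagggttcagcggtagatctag

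None of the 7 secreted proteins passed the test, although 6 had a log2 fold change below 0. Lgals3bp, a galectin-binding glycoprotein, was at 22.9, 31.4, 9.64, 20.7 and 11.7 CPM in libraries labelled 5XFAD and at 10.3, 10.9, 10.5, 11.8 and 11.3 CPM in those labelled 5XFAD;Neu cKO. The latter lay within a narrow range and the former reached well above and slightly below it. Its log2 fold change was -0.80 (standard error 0.24, adjusted p = 0.246 in edgeR). With 1 library left out, the adjusted p ran from 0.0443 without 5XFAD replicate 3, the only such fit in which it passed, to 0.681 without 5XFAD replicate 2, where the log2 fold change was -0.56. Ccl6, a chemokine of myeloid cells, was at 14.6 ± 5.68 and 6.54 ± 4.44 CPM (SD, n = 5 each), a log2 fold change of -1.17 (adjusted p = 0.197). The adjusted p of Ccl6 was 0.0124 with no filter on low counts, 0.303 with filterByExpr and 0.528 in a robust fit. With 1 library left out it ran from 0.0448 without 5XFAD;Neu cKO replicate 2, the only such fit in which Ccl6 passed, to 0.556 without 5XFAD replicate 2. Igf1, a growth factor, was at 15.8 ± 5.34 and 13.2 ± 5.32 CPM (adjusted p = 0.889).

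Spp1, osteopontin, which plaque-associated microglia secrete, had a log2 fold change of 0.27 with an interval of -0.63 to 1.17 (adjusted p = 0.961 in edgeR). The chemokines Ccl3 and Ccl4, made by activated microglia, and Lgals3, the lectin galectin-3, were at or below 2.33 CPM in every library, and their intervals spanned from -4.98 to 0.54, -3.04 to 2.56 and -3.65 to 2.08. A count of 0 was found in at least 1 library for 8 of the 41 genes, these 3 among them, and such a count allows up to 3 counts, or 0.394 to 0.704 CPM by library. For Ccl3, Ccl4 and Lgals3 a difference was not detectable at this depth.

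None of the 3 lipid enzymes passed the test. Lpl, lipoprotein lipase, a marker of plaque-associated microglia that neurons also make, was at 46.3, 48.1, 51.9, 47.5 and 28.5 CPM in libraries labelled 5XFAD and at 40.9, 65.7, 37.7, 32.6 and 44.2 CPM in the others. The groups overlapped almost fully, and the log2 fold change was -0.01 with an interval of -0.32 to 0.29 (adjusted p = 0.995 in edgeR). Hpgds, which makes prostaglandin D2, was at 11.9 ± 3.88 and 8.48 ± 1.63 CPM (SD, n = 5 each; adjusted p = 0.722). Ch25h, cholesterol 25-hydroxylase, was counted 19 times in all.

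The MHC class II genes present peptides to T cells and were near the limit of detection. H2-Eb1 was counted 12, 16, 16, 19 and 17 times in the libraries labelled 5XFAD and 0, 1, 14, 6 and 4 times in those labelled 5XFAD;Neu cKO. In CPM these were 2.33, 3.75, 2.17, 3.54 and 3.82 against 0, 0.184, 1.84, 1.01 and 0.575, and the groups did not overlap, although replicate 3 of the latter came within reach of the former. The log2 fold change was -2.03 with an interval of -3.46 to -0.59, and the adjusted p was 0.390. H2-Eb1 overlaps H2-Aa on the opposite strand. H2-Aa, H2-Ab1 and Cd74, the invariant chain, had log2 fold changes of 0.11, 0.09 and 0.25 with standard errors of 0.68, 0.76 and 1.16. Whether H2-Eb1 differed from the other chains in its change was not tested.

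Aif1, the actin-binding protein IBA1 by which microglia are stained, was at 6.20, 10.1, 3.12, 5.78 and 7.18 CPM in libraries labelled 5XFAD and at 4.49, 8.46, 5.38, 4.37 and 4.17 CPM in the others. The groups overlapped (log2 fold change -0.26, interval -0.98 to 0.47, adjusted p = 0.951 in edgeR). Fth1, the heavy chain of ferritin, which stores iron in all brain cells, was at 1580.0, 1734, 1460.0, 1424 and 1311 CPM and at 1665, 1410.4, 1266, 1265 and 1293 CPM in the same order. Its values had overlapping ranges and a narrow interval, -0.27 to 0.02 around a log2 fold change of -0.12 (adjusted p = 0.747). Ftl1, the light chain, was at 26.7 ± 15.8 and 30.7 ± 13.7 CPM (SD, n = 5 each; adjusted p = 0.929), with 3 libraries over 40 CPM spread over both groups. Copies of ferritin genes elsewhere in the genome could take or lend reads.

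The precision differed with the depth of each gene. The 19 genes with a mean of 10 CPM or more had standard errors of 0.07 to 0.34 on the log2 scale, and 17 of them had a log2 fold change below 0, with a median of -0.30. These 19 held the 3 genes past the threshold. The 10 genes between 3 and 10 CPM had a median of -0.56, and the 12 genes under 3 CPM a median of -0.61 with standard errors of 0.66 to 1.53. None of the genes in these lower classes passed. The number called among the 41 was 5 with no filter on low counts, where Cst7 and Ccl6 were added, 5 without 5XFAD replicate 3, and 1 when 5XFAD replicate 1, 2 or 4 or 5XFAD;Neu cKO replicate 3 or 5 was left out.

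**Figure D3:**
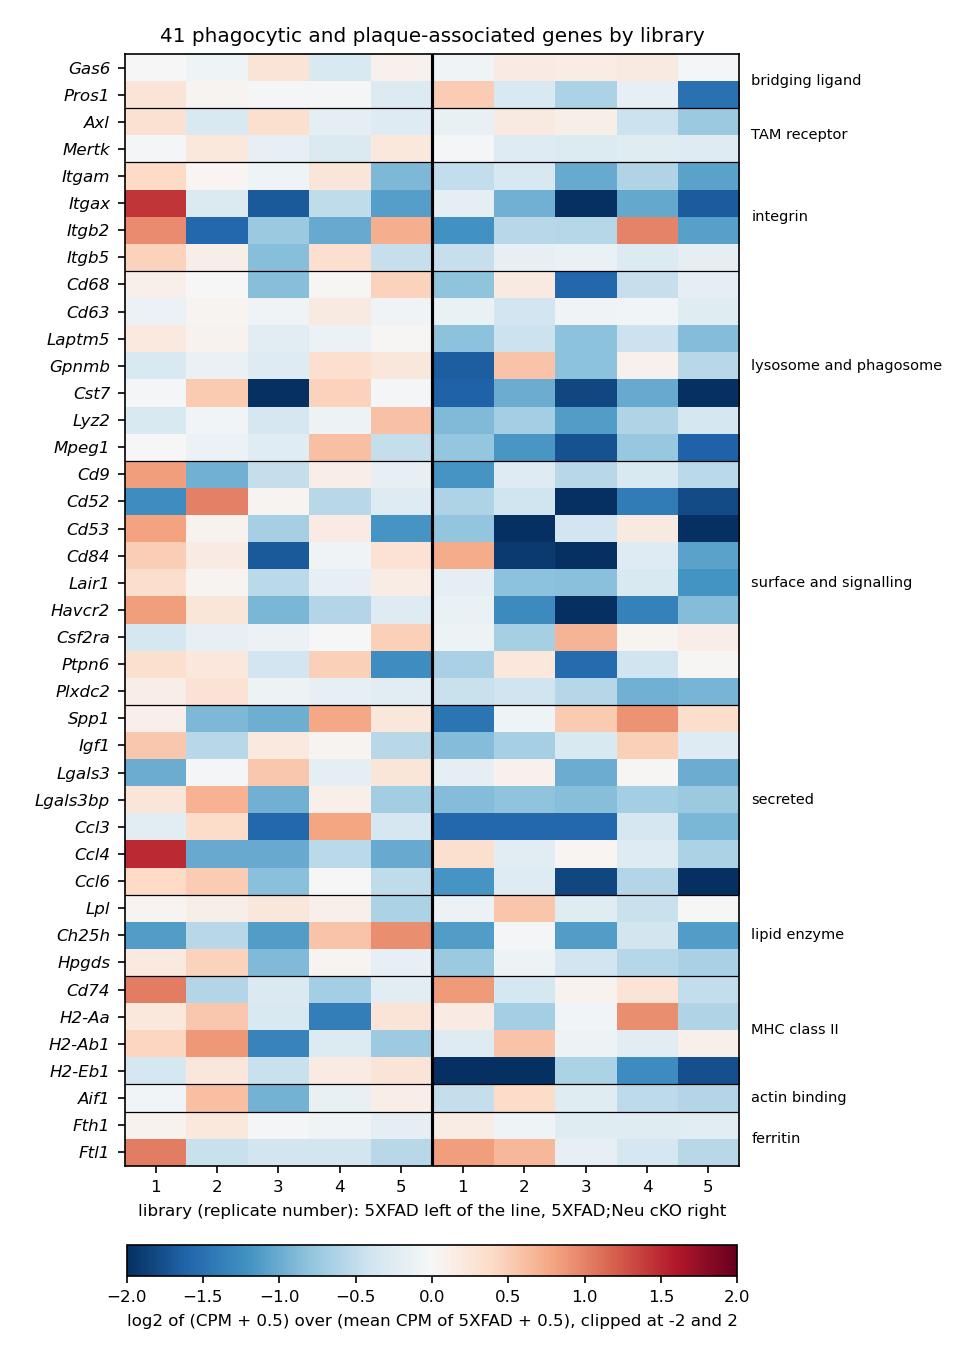
Log2 ratio of CPM + 0.5 to the mean of the libraries labelled 5XFAD + 0.5 (colour) for 41 genes (rows, by role) in 10 libraries (columns, 5XFAD left and 5XFAD;Neu cKO right of the black line). Blue cells are more frequent on the right in the rows of the lysosome and of surface proteins, and 33 of the 41 genes have their highest value on the left.

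The libraries themselves varied over these genes. The highest of the 10 values belonged to a library labelled 5XFAD in 33 of the 41 genes and to one labelled 5XFAD;Neu cKO in 8. Replicate 1 labelled 5XFAD was the highest in 12 of the 41 genes and replicate 2 in 9. Over all genes tested, replicates 1 to 5 labelled 5XFAD were the highest in 10.03%, 13.8%, 8.19%, 8.49% and 11.9%. For replicates 1 to 5 labelled 5XFAD;Neu cKO these shares were 9.72%, 9.66%, 9.12%, 8.65% and 10.4%. The median deviation of the 41 genes from the mean of the libraries labelled 5XFAD was 0.27, 0.10, -0.30, 0.04 and -0.07 on the log2 scale in replicates 1 to 5 of that group. It was -0.43, -0.21, -0.56, -0.23 and -0.60 in those labelled 5XFAD;Neu cKO. Replicate 3 labelled 5XFAD was thus as low as some libraries of the other group, and the groups overlapped in this median.

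Other genes of plaque-associated microglia and of engulfment gave a background for the list. Of 40 further plaque-associated genes 37 were tested, 34 of them had a log2 fold change below 0 (median -0.35), and 7 passed the test, all lower: Clec7a, C1qb, Tyrobp, Ctss, C1qc, Ctsd and Npc2. Ctsd and Ctss, lysosomal proteases, fell by 0.69 and 0.91 on the log2 scale (adjusted p = 5.24e-07 for each in edgeR). Tyrobp, the signalling adaptor of TREM2, was at 46.9, 47.2, 25.9, 34.5 and 25.1 CPM in libraries labelled 5XFAD and at 19.8, 22.6, 14.8, 12.6 and 14.2 CPM in the others, and fell by 1.096 on the same scale (adjusted p = 0.000564). C1qb and C1qc, chains of complement C1q, fell by 1.21 and 0.82 (adjusted p = 0.000407 and 0.00985), and Npc2, which carries cholesterol in the lysosome, fell by 0.64 (adjusted p = 0.000932). C1qc was not past the threshold without 5XFAD replicate 4 or without 5XFAD;Neu cKO replicate 5 (adjusted p = 0.0636 and 0.0984).

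Clec7a, the receptor dectin-1, was counted 10 to 22 times in the libraries labelled 5XFAD and 0 to 3 times in the others (adjusted p = 0.0468 in edgeR). Among the fits without 1 library, it passed the threshold only without 5XFAD;Neu cKO replicate 1 (adjusted p = 0.0368). Without the 5XFAD replicates the adjusted p was 0.152, 0.156, 0.0792, 0.117 and 0.0517 in turn, and without 5XFAD;Neu cKO replicates 2 to 5 it was 0.0744, 0.144, 0.0717 and 0.128.

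The machinery of engulfment is shared by many cell types, and none of its genes passed the test. Of 42 genes for further bridging ligands, scavenger receptors, actin regulators and phagosome GTPases, 41 were tested, 21 had a log2 fold change below 0 and 20 above, and the median was -0.02. Single genes ran from -1.94 for Vav1 to 2.35 for Msr1, with standard errors of 0.86 and 1.72. Plcg2 and Syk were at -1.05 and -0.84 (standard errors 0.63 and 0.66), and Inpp5d and Was at 0.03 and 0.81 (0.33 and 1.01). A median near 0 over this mixed list does not show that each gene was unchanged. The count past the threshold was 0 in edgeR and 0 in DESeq2, and 3 of the 41 had an unadjusted p under 0.05, where 7.95% of all genes tested did. Mfge8, a bridging ligand made by astrocytes, and Lrp1, an endocytic receptor, differed by -0.24 ± 0.09 and -0.08 ± 0.09 on the log2 scale (± standard error, adjusted p = 0.431 and 0.922 in edgeR).

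**Figure D4:**
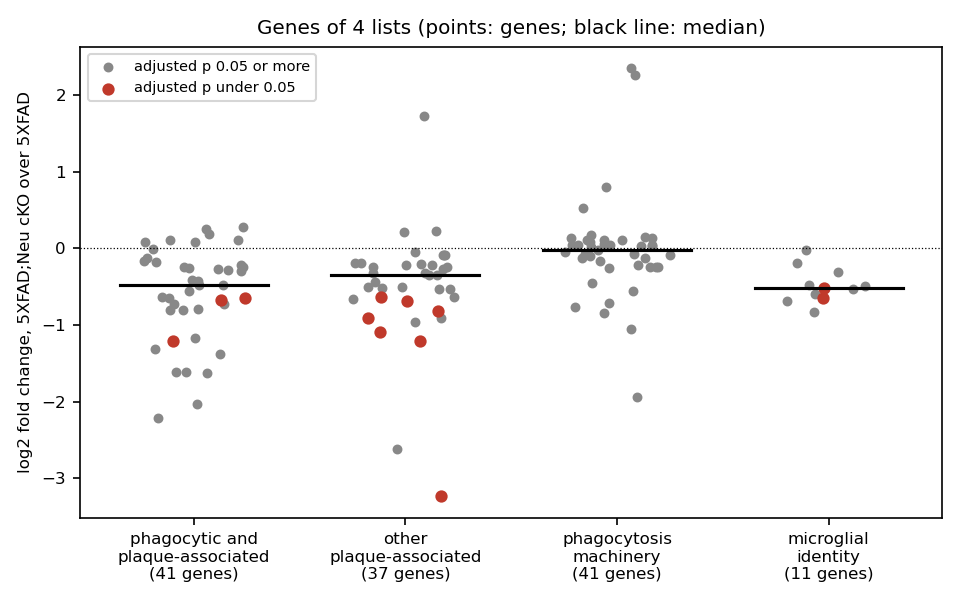
Log2 fold change, 5XFAD;Neu cKO over 5XFAD (y axis), of each tested gene (points) in 4 lists, with red points for an adjusted p under 0.05 and a black line at each median. The medians are -0.48, -0.35, -0.02 and -0.51 from left to right, and the numbers of red points are 3, 7, 0 and 2.

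Identity genes of microglia, several of which belong to the resting state, also had lower values. Of the 12 listed, 11 were matched, 2 passed the test and all 11 had a log2 fold change below 0, with a median of -0.51. The smallest was that of Sall1 (-0.02), which was below 0 in only 4 of the 10 fits without 1 library. The summed level of the 11 genes was 259 to 370 CPM in libraries labelled 5XFAD and 201 to 224 CPM in those labelled 5XFAD;Neu cKO, with no overlap. Taken singly, 3 of the 11 had groups that did not overlap, all lower, where 0.721% of all genes did so. Csf1r, the receptor that keeps microglia alive, and Cx3cr1, the fractalkine receptor, passed the test (log2 fold changes -0.65 and -0.51, adjusted p = 0.00615 and 0.0232 in edgeR). These 2 genes were the largest parts of the sum. Their means were 60.3 and 89.2 CPM in libraries labelled 5XFAD, of a mean sum of 301 CPM. In the others they were 38.5 and 62.5 CPM, of 208 CPM. Csf1r lost its call without 5XFAD replicate 2 (adjusted p = 0.0808), and Cx3cr1 lost it without 5XFAD replicate 2 (adjusted p = 0.231) and without 5XFAD;Neu cKO replicates 3, 4 and 5 (adjusted p = 0.0846, 0.0694 and 0.0801). P2ry12 and Tmem119, markers of the resting state, did not pass (log2 fold changes -0.31 and -0.53, adjusted p = 0.744 and 0.544).

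Divided by the summed identity genes of the same library, the 41 genes were spread about evenly around 0. The log2 difference of this ratio between the groups was below 0 in 19 and above 0 in 22, with a median of 0.09, while the median of all genes tested was 0.52 and 8.45% of them were below 0. The median was -0.02 without 5XFAD replicate 2, -0.00185 without 5XFAD;Neu cKO replicate 2 and -0.03 without 5XFAD;Neu cKO replicate 4. The ratio did not separate the groups downward in any of the 41 genes, where 0.0311% of all genes did, and it separated them upward in Gas6 and Fth1, where 17.8% of all genes did. For Laptm5 and Plxdc2 the difference in the ratio was -0.15 and -0.13. For Mpeg1 it was -0.66, for Cst7 -0.85, for Ccl6 -0.87 and for H2-Eb1 -1.44, and the groups overlapped in each. The prior count was added to each gene and not to the sum, whose mean log2 differed by -0.52 between the groups. It draws the change of genes with few counts toward 0 and so raises their ratio. Lgals3, for example, had a log2 fold change of -0.79 and a difference in the ratio of 0.11. The split around 0 therefore does not show that the 41 genes fell in step with the identity genes. These ratios are a description and were not tested.

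**Figure D5:**
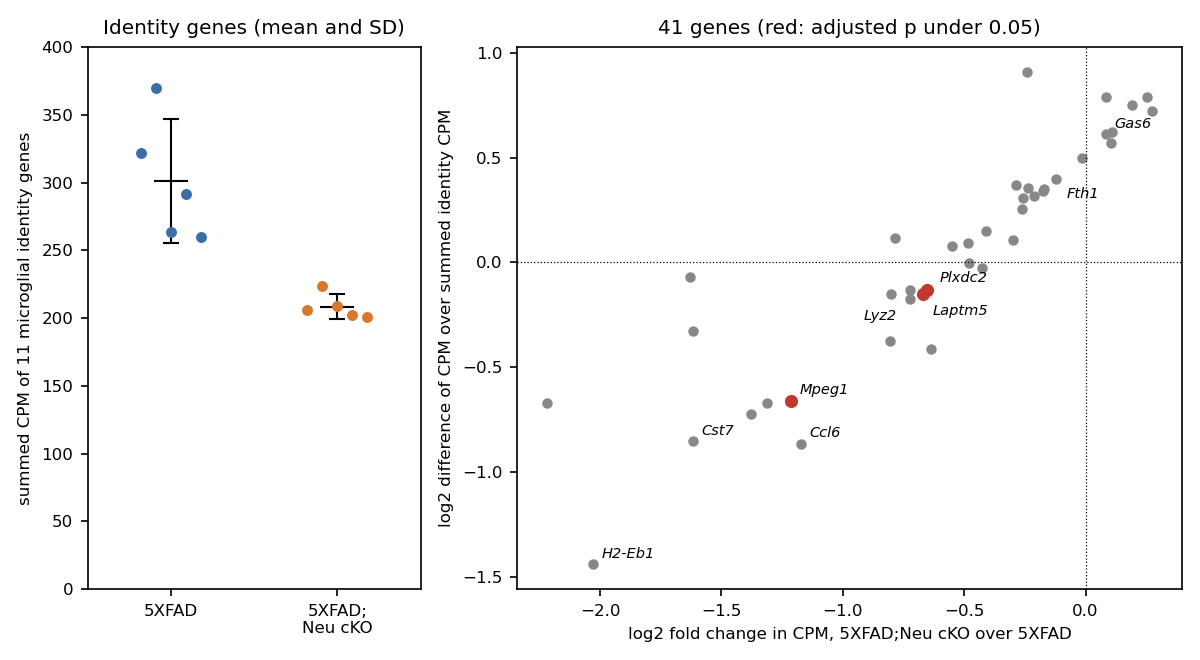
Left, summed CPM of 11 microglial identity genes in each library (points, with mean and SD, n = 5). Right, log2 difference of each gene's ratio to that sum (y axis) against its log2 fold change in CPM (x axis) for the 41 genes, with the 3 genes past the threshold in red. The sums do not overlap between groups, and 22 of the 41 points on the right lie above 0.

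Markers of some other cells had values on 1 side as well. Of 9 astrocyte genes, 8 were below 0 on the log2 scale (median -0.13), none passed the test in edgeR or DESeq2, 2 had an unadjusted p under 0.05, both lower, and their sums were 4346 to 5072 CPM in libraries labelled 5XFAD against 4245 to 4878 CPM. The 9 oligodendrocyte genes all had lower fitted values in libraries labelled 5XFAD;Neu cKO, with sums of 2110.3 to 3077 CPM against 1865 to 2928 CPM that overlapped. Of these, Mal, a protein of myelin, passed the test (log2 fold change -0.48, adjusted p = 0.0427 in edgeR), but it did so in only 2 of the 10 fits without 1 library, with an adjusted p of up to 0.350. The sums of border macrophage genes were 6.80 to 16.03 CPM in libraries labelled 5XFAD and 10.2 to 18.3 CPM in the others. Of the 8 monocyte and neutrophil genes listed, 2 had a total count over 10, and they summed to at most 2.72 CPM. Of the 6 T cell genes listed, only 1, Cd4, had such a total, at up to 6.81 CPM. Chil3, Camp, Cd3d, Cd3g and Nkg7 were at 0 in every library. Red cell genes were at 6.34 to 51.4 CPM and at 46.9 to 211 CPM, and all 5 genes were higher in the second group. The globin genes Hba-a1 and Hbb-bs passed (log2 fold changes 2.16 and 1.87, adjusted p = 0.000302 and 0.000233 in edgeR), though not in a robust fit (adjusted p = 0.413 and 0.482). DESeq2 gave Hbb-bs an adjusted p of 0.153 and Hba-a1 none, and near-identical globin genes may share their reads. The part of these cells in the differences above was not tested.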

How the data were processed

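Cortical RNA of 5 libraries per group was read by QuantSeq 3′ sequencing. Per the study's methods and processing notes, bbduk removed adapter and poly(A) sequence, STAR 2.7.3a mapped to GRCm39, and htseq-count summed reads over Ensembl genes. The values the authors deposited are these counts, whole numbers with no normalization. Rows of htseq-count that name no gene (no feature, 31.3% to 39.9% of reads on genes, on no gene or ambiguous) were left out of library sizes and tests. PCR copies cannot be told from separate molecules in such counts, so limits given for a count of 0 cover counting error only.

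The filter used in the study, a total above 10 over all libraries, left 19268 genes. They were compared with edgeR 4.0.16 in R 4.3.3 (TMM, estimateDisp, glmQLFit and glmQLFTest, group as the only term), with Benjamini-Hochberg adjustment over all of them and a threshold of 0.05. The authors used DESeq2, which was run as an alternative (version 1.42.0). It gave an adjusted p for 5820 of the 19268 genes, so its adjusted values and its number of calls rest on fewer genes than those of edgeR. Single genes were also compared by an exact two-sided permutation test over 252 relabellings, whose smallest p is 0.00794. CPM are counts scaled to the TMM-adjusted library size. Ratios to the summed identity genes used log2 CPM with a prior count of 2. Names and places came from GENCODE M39. On simulated counts with 200 genes changed by a log2 of 1, the edgeR step recovered 80% of them among 18582 genes tested, and 4.76% of its calls were false. The changed genes were drawn only from genes above a minimum mean CPM. The 12 genes of the list under 3 CPM lay below it, as did Cd52, Cd84, Ptpn6 and Spp1. The 80% does not hold for any of these genes or for smaller changes. No 2 libraries of a group agreed within sampling noise (smallest chi-square per degree of freedom 5.87 over 20 pairs).

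The members, the lists and the alternatives were chosen with earlier results of these data known. Values in every library are given for genes past the threshold, genes without overlap, the TAM ligands and receptors and the gene of highest mean CPM in each role. Of the other lists, genes past the threshold are named. Library values of Cst7 and the naming of Mfge8, Lrp1, P2ry12 and Tmem119 were decided after their values were seen. So was the naming of Vav1, Msr1, Plcg2, Syk, Inpp5d, Was and Sall1. The alternatives were DESeq2, its size factors in edgeR, filterByExpr, no filter, a robust fit, no mitochondrial genes, a replicate block, each library left out, a prior count of 0.5 and a sum of 3 identity genes.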

Additional observations from a re-analysis of the deposited data

Results flagged for a closer look

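A library stood apart from the other 4 of its group, by a gap of more than 0.71 of the group's range (Dixon's test), in 9 of the 82 groups of 5 values that the 41 genes give. Chance flags about 1 group in 20 if the values follow a normal distribution, which CPM of genes with few counts need not do. Itgax, Itgb2, Ccl4 and Cd74, all flagged, had a mean below 3 CPM, so the number of flags cannot be set against that rate. Of the 9 flags, 4 fell on 5XFAD replicate 1. There Itgax was at 5.04 CPM (the next library at 1.17), Ccl4 at 2.33 CPM (next 0.186), Cd74 at 1.74 CPM (next 0.449) and Ftl1 at 54.8 CPM (next 20.7). In 5XFAD replicate 5, Lyz2 was the highest of its group at 25.1 CPM (next 15.96) and Lpl the lowest at 28.5 CPM (next 46.3). Among the libraries labelled 5XFAD;Neu cKO, Mertk was high in replicate 1 at 60.0 CPM (next 52.2), Itgb2 in replicate 4 at 5.22 CPM (next 1.47) and Aif1 in replicate 2 at 8.46 CPM (next 5.38). None of the 9 genes passed the test between groups.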

How the results depend on the processing

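The count of all genes past the threshold was 42, and it was 73 with DESeq2, 103 with no filter on low counts and 26 to 72 when 1 library was left out. Of the 41 genes, 3 passed, 5 with no filter and 1 to 5 with 1 library left out. The median log2 fold change of the 41 was -0.48 in each setting that keeps all 10 libraries except the replicate block (-0.45), and with 1 library left out it was -0.60 to -0.33. The number of the 41 below 0 was 32 to 35 with 1 library left out and 26 with filterByExpr, which tests fewer genes (these recounts were added after seeing the data). The other plaque-associated genes past the threshold numbered 5 to 7 with 1 library left out and 6 without mitochondrial genes, where Clec7a lost its call (adjusted p = 0.0521), and the machinery of engulfment had 0 throughout. The median ratio to identity genes was 0.038 with 3 genes in the sum, 0.067 with a prior count of 0.5 and -0.034 to 0.16 with 1 library left out. With 1 library left out, log2 fold changes crossed 0 for Itgb2 (-1.05 to 0.19), Csf2ra (-0.11 to 0.26), Ccl4 (-0.57 to 2.69), Lpl (-0.20 to 0.076), Cd74 (-0.16 to 1.13), H2-Aa (-0.31 to 0.33), H2-Ab1 (-0.20 to 0.54) and Ftl1 (-0.026 to 0.63). The cause of these changes was not tested. DESeq2 gave an adjusted p for 10 of the 41 genes and none for the rest, Mpeg1 among them.

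Replicate numbers did not pair the samples: correlations of same-numbered libraries, over 8841 genes, were 0.003, -0.059, 0.054, -0.078 and -0.055. With the replicate block, 112 genes passed, 5 of the 41 among them, and Ccl4 had a log2 fold change of 1.46. No 5XFAD library correlated best with its own number.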
